A study of Mus musculus with 15 samples.

Results

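The effect of 2 days of RANKL on the mouse small-intestinal epithelium was read from 6 of the 15 arrays of the series, the 3 titled as RANKL for 2 days and the 3 titled as control. RANKL (gene Tnfsf11) is a cytokine of the TNF family. Both groups were wild-type BALB/c mice 10 weeks of age, whose epithelial cells were detached from the small intestine with EDTA before total RNA was hybridised to Affymetrix arrays. The RANKL mice received a GST-RANKL fusion protein by intraperitoneal injection, 2 times a day, and were sampled at 2 days. The controls carry time point 0 and no agent, and no samples given GST or vehicle alone are among the 15, so GST and the injections cannot be told apart from RANKL. The letters VE in the RANKL titles are not explained in the labels. By their label numbers the control arrays are called C1 to C3, the RANKL day 2 arrays R1 to R3 and the RANKL day 1 arrays E1 to E3. The sources do not state that a group's arrays represent different mice, so p-values here measure the spread between these samples. All genes on the arrays were compared, 19938 in number, each through 1 probe set.

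RANKL is normally made by the stromal cells beneath the dome epithelium of lymphoid follicles, and epithelial cells carry its receptor RANK. RANK recruits TRAF adaptors and signals through the canonical NF-kB pathway and through the noncanonical pathway, in which the precursor encoded by Nfkb2 is cut to p52 and pairs with RelB. In the gut this signal turns epithelial cells into M cells, which take up particles and microbes from the lumen and hand them to immune cells, and injected RANKL is known to evoke M cells on villi that normally have few.

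Levels are log2 of the deposited intensity after quantile normalization. A change is the difference of the 2 group means on that scale (n = 3 arrays per group), given ± its standard error (SE). The SE and p-values come from a limma fit of all 15 arrays, so they also take in the spread of the other groups. A gene was called, that is said to rise or fall, at an adjusted p under 0.05 by limma with Benjamini-Hochberg adjustment over all genes. By that rule 303 genes rose and 210 fell, which is 1.52% and 1.05% of all genes (2.57% together). Counts of called list members are to be read beside these shares. An unadjusted p under 0.05 by limma was reached by 2370 of the 19938 genes, both directions together. List counts at that threshold are to be read beside this number. The change was 1 or more in size for 91 of those that rose and 25 of those that fell, and the median change over all genes was -0.02. No called gene had overlapping groups of arrays, so a lack of overlap adds nothing to a call. Rises made up 59.1% of the calls. Weights per array raised the number to 930 and lowered the share of rises to 47.2%. The count fell to 294 without R1, to 288 without R2, to 283 without C3 and to 311 with median centring. Calls were the same in direction for 231 genes (164 higher, 67 lower) whichever of the 6 arrays was left out. Every call named in the text is of that kind unless an array is named beside it. The 3 Y chromosome genes read here lay between 4.92 and 5.50 while Xist lay between 11.93 and 12.27, so a level up to 5.50 is treated as background. Array medians ran from 147 to 167 on the linear scale. E2 stood apart from the other 14 arrays of the series on the first principal component, and without it 721 genes were called, with no named call lost.

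**Figure D1:**
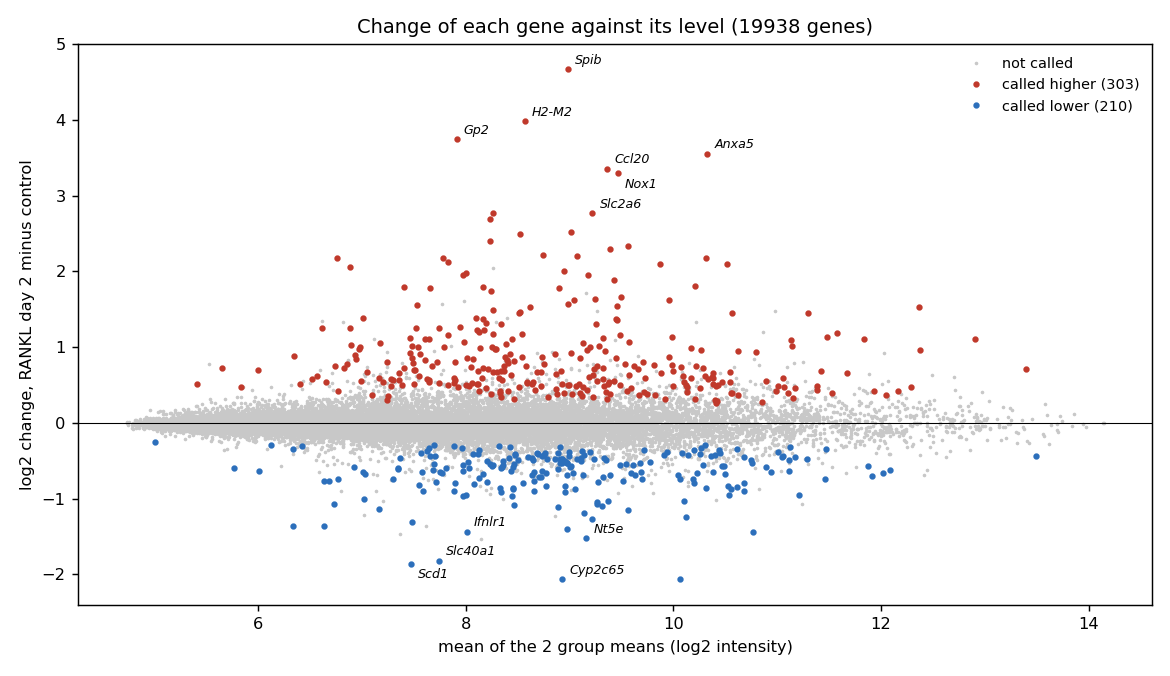
Change of each of the 19938 genes (RANKL day 2 minus control, log2) against the mean of the 2 group means (log2 intensity), with genes called higher in red and genes called lower in blue. The 303 rises reach 4.67 for Spib, while the falls end at -2.06.

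An M cell transcription factor gene, Spib, opened the list of rises. Spib (probe set 10562812), the Ets-family factor needed for M cell maturation, read 6.50, 6.81 and 6.63 on the control arrays and 11.19, 11.22 and 11.54 after 2 days. All 3 RANKL arrays were high and close together, and the change of 4.67 ± 0.20 (adjusted p = 5.68e-08), a 25.4-fold rise, exceeded that of every other gene. Sox8, another factor of M cell differentiation, read 7.23, 7.11 and 7.39 in controls and 8.32, 8.30 and 8.61 with RANKL, a rise of 1.17 ± 0.10 (adjusted p = 1.07e-05). The groups were well apart for both genes. Esrrg, which encodes an orphan nuclear receptor, rose by 0.62 ± 0.12 (adjusted p = 0.0129), a call that ended without R1 (0.057), R2 (0.0669) or C1 (0.0619) and when the 2 groups were fitted alone (0.0571). Atoh8, known to restrain M cell numbers, was not called at 0.25 ± 0.17 (adjusted p = 0.656). Of the 4 factors 3 were called higher and none lower, and at an unadjusted p under 0.05 none was lower either.

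Promoter sequences of genes that rose are shown because NF-kB lies directly downstream of RANK. RefSeq (GRCm38.p6) gave the 250 bases upstream of at least 1 transcription start for 15614 of the measured genes. The windows were searched on both strands for the 10-base kB motif, the sequence bound by NF-kB dimers. It was present in the windows of 31 of 239 genes called higher (13%), of 11 of 165 called lower (6.67%) and of 788 of all 15614 (5.05%). Counted per window, since a gene may have several starts, the shares were 11%, 5.43% and 4.33%. For comparison the Ets-type motif GAGGAAGT was present for 3.77% of genes called higher, 1.21% of those called lower and 2.59% of all. Among the 6 largest rises 4 genes had a kB match (Spib, H2-M2, Ccl20 and Nox1), and Anxa5 and Gp2 had none in this window. Of the 16 largest rises 13 had a window and 5 a match. A match is a description of letters and not a measured binding site.

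The windows of 6 genes with a match are given here, 5′ to 3′ along the gene, with each kB match in capitals. They are Spib at chr7:44532072-44532321 (minus strand), H2-M2 at chr17:37483555-37483804 (minus strand), Ccl20 at chr1:83116516-83116765 (plus strand), Nox1 at chrX:134111855-134112104 (minus strand), Ccl9 at chr11:83578637-83578886 (minus strand) and, of 3 Nfkb2 windows with a match, the one at chr19:46304487-46304736 (plus strand).
Spib: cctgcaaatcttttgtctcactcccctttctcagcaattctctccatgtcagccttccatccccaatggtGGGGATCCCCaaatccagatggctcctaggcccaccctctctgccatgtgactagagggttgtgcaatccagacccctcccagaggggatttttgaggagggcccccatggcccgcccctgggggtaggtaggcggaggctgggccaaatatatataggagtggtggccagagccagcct
H2-M2: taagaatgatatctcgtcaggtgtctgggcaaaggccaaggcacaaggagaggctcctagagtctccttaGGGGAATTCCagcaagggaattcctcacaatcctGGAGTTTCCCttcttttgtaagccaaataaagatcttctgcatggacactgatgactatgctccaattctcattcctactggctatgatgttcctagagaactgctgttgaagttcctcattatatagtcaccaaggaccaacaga
Ccl20: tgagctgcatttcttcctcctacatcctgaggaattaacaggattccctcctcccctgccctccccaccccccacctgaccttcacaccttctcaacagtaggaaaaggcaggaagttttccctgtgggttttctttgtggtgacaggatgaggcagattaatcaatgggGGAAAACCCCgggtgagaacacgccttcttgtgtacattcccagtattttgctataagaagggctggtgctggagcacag
Nox1: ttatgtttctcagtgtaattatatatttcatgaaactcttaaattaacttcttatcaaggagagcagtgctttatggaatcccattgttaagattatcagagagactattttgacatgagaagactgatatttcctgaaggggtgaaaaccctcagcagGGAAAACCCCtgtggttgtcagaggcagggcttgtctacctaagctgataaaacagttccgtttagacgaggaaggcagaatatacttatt
Ccl9: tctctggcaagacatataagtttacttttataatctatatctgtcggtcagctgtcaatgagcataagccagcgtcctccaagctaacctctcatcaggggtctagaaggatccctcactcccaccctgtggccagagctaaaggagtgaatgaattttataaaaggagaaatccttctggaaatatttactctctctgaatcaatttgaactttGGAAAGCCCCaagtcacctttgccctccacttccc
Nfkb2: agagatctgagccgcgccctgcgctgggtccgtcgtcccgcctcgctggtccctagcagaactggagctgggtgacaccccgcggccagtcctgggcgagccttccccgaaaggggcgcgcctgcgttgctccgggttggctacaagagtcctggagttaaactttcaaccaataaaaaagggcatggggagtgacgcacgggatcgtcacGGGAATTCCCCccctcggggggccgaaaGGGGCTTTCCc
The match in Spib began 180 bases before the start and read the same on both strands. H2-M2 held a match at 180 bases and another at 146, Ccl20 held 1 at 80, Nox1 at 91 and Ccl9 at 35. In Nfkb2, itself a known NF-kB target, the matches began between 39 and 11 bases before the start.

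The listed genes of M cell uptake and maturity rose nearly as a block. The list is not of uptake genes alone, and it shares chemokine genes, Tnfrsf11b, Rac2, Ncf4 and Ctsh with lists described below. Of 23 measured markers 21 rose and none fell, with a median change of 1.79 against -0.02 over all genes, and none was lower at an unadjusted p under 0.05. Some of these markers are known from epithelium given RANKL, possibly from these same samples, so their direction here is no independent evidence. Gp2 (probe set 10567366), the receptor with which M cells bind fimbriated bacteria, read 5.94, 5.95 and 6.22 in controls and 9.78, 10.00 and 9.59 with RANKL. Its control values lay just above background, and the rise of 3.75 ± 0.34 (adjusted p = 2.51e-05) was 13.4-fold. H2-M2 (probe set 10450880), a gene of nonclassical MHC class I, moved from 6.39, 7.02 and 6.31 to 10.53, 10.55 and 10.60. The RANKL arrays were nearly identical for H2-M2, and its rise was 3.99 ± 0.26 (adjusted p = 1.63e-06). Anxa5 (probe set 10497817), which encodes the phosphatidylserine-binding annexin A5, moved from 8.59, 8.71 and 8.35 to 11.97, 12.21 and 12.13, a rise of 3.55 ± 0.20. Of the 12 annexin genes measured, the only other one called was Anxa13, at 0.59 ± 0.14, and leaving out any of the 6 arrays ended its call (adjusted p from 0.0605 to 0.184), as did median centring (0.099), an offset of 16 (0.0505), an ordinary t (0.124), the 2 groups alone (0.0678) and the values as deposited (0.0667).

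Tnfaip2, linked to membrane protrusions of M cells, read 7.11, 6.59 and 6.95 in controls and 9.41, 9.48 and 9.86 with RANKL, a rise of 2.70 ± 0.22. Mfge8, whose secreted product bridges dying cells to phagocytes, rose by 2.20 ± 0.21 from 7.91, 8.04 and 7.96 to 10.39, 10.40 and 9.71. R3 was the lowest RANKL array for Mfge8 and still far above all controls. Clu, the extracellular chaperone clusterin, rose by 2.21 ± 0.15 to 9.50, 9.85 and 10.20 from 7.59, 7.62 and 7.70. Pglyrp1, a peptidoglycan recognition protein, was bright in controls (11.75, 11.51 and 11.55) and rose by 1.53 ± 0.09 to 13.12, 13.12 and 13.15. Of members named after their values were seen, the prion protein gene Prnp rose by 1.79 ± 0.18 from 6.52, 6.50 and 6.50, the secretory chaperone gene Scg5 by 1.31 ± 0.11 and the MARCKS-family gene Marcksl1 by 1.37 ± 0.17. Psg18, named in the same way, rose by 1.25 ± 0.22, a call that ended when the 2 groups were fitted alone (0.0503). Aif1, also a macrophage gene, rose by 0.58 ± 0.12 (adjusted p = 0.0217). Its call ended without R1 (0.0572), R2 (0.0513), R3 (0.0846), C2 (0.0835) or C3 (0.0784) and with an ordinary t (0.0669). Gjb2 (0.95 ± 0.18), named after its values were seen, lost its call without R2 (0.056). The members not called were Umod, at 0.09 ± 0.08 (adjusted p = 0.796), and C5ar1, at -0.00 ± 0.08 (adjusted p = 0.999). In bulk tissue a larger number of M cells and more RNA per cell cannot be told apart.

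**Figure D2:**
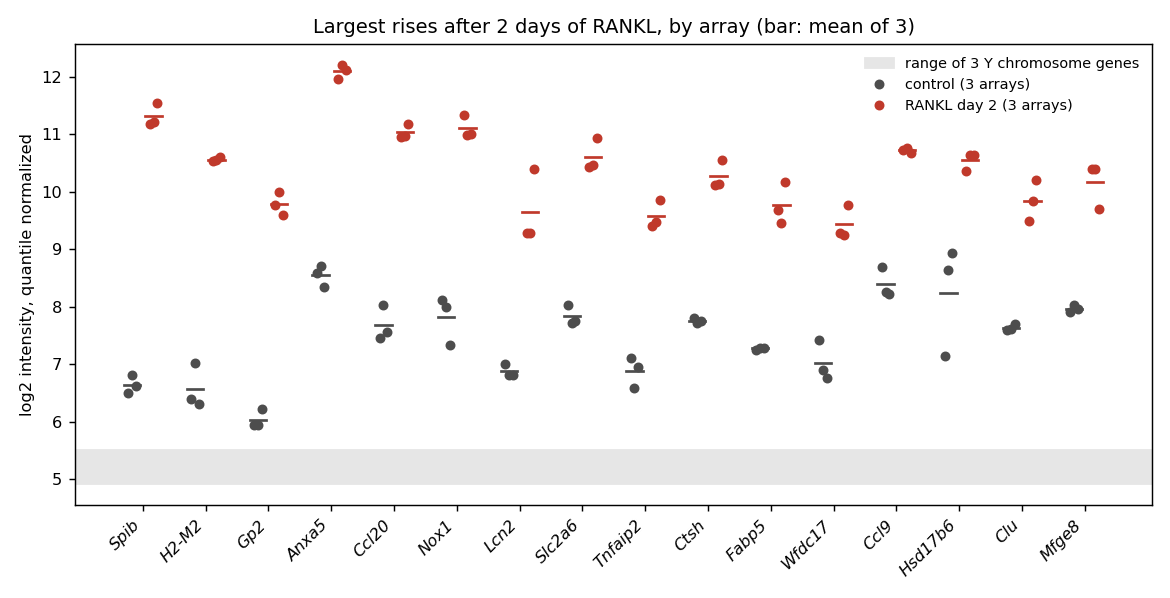
Levels (log2 intensity) of the 16 genes with the largest rises on each control array (grey) and each RANKL day 2 array (red), with bars at the means of 3 arrays and a band at the range of 3 Y chromosome genes. The 16 were chosen among called genes without overlap between groups, and the control arrays of Hsd17b6 spread most, from 7.15 to 8.94.

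The receptor RANK, its decoy and some of its signalling genes rose. Tnfrsf11a, the gene of RANK, read 9.59, 9.54 and 9.53 in controls and 10.16, 10.23 and 10.24 with RANKL, a rise of 0.66 ± 0.11 (adjusted p = 0.00402; 1.58-fold). Tnfrsf11b, which encodes the soluble decoy receptor osteoprotegerin that binds RANKL, rose more, by 1.75 ± 0.18 (adjusted p = 5.67e-05; 3.36-fold). It moved from 7.54, 7.25 and 7.34 to 9.09, 9.0 and 9.27, and both groups were tight and apart. The ligand gene Tnfsf11 itself was not called, at -0.15 ± 0.19 (adjusted p = 0.878). Of 10 measured genes of RANK and noncanonical signalling 5 rose and none fell, against 1.52% of all genes. The calls of Tnfrsf11a, Tnfrsf11b and Nfkb2 held without each array. The count was 3 without R3 and 3 when the 2 groups were fitted alone, and at an unadjusted p under 0.05 there were 8 higher and 0 lower.

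Nfkb2, the precursor of p52, read 8.89, 8.59 and 8.81 in controls and 9.87, 9.91 and 9.90 with RANKL. The RANKL arrays were nearly identical, and the rise was 1.13 ± 0.08 (adjusted p = 3.02e-06). Relb, the partner of p52, was not called at 0.18 ± 0.07 (adjusted p = 0.304), although its 3 RANKL arrays (9.09, 9.13 and 9.23) lay just above its controls (8.88, 8.95 and 9.08). Groups lay apart in that direction for 8.09% of all genes. Map3k14, the kinase NIK, stood at 0.26 ± 0.11 (adjusted p = 0.394), Traf6 at 0.28 ± 0.12 (adjusted p = 0.338) and the canonical subunit gene Rela at 0.01 ± 0.14 (adjusted p = 0.995), none of them called. Birc3, the ubiquitin ligase cIAP2, rose by 0.65 ± 0.14 (adjusted p = 0.022). The call of Birc3 ended without R2 (0.0721), R3 (0.0829) or C1 (0.0772), with median centring (0.0987) or the values as deposited (0.0535), with the 2 groups alone (0.0788) and with an ordinary t (0.0717).

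The canonical pathway was represented by its inhibitors. Of 16 measured genes 5 rose and none fell, all 5 being genes that restrain NF-kB. Nfkbia, which encodes IkB alpha, read 10.05, 10.10 and 10.29 in controls and 11.17, 10.89 and 11.23 with RANKL, a rise of 0.95 ± 0.13 (adjusted p = 0.00131). Nfkbie, the gene of IkB epsilon, rose by 0.47 ± 0.08 (adjusted p = 0.00425). Both groups were apart on every array for these genes, as for every called gene. The rise of Tnfaip3, the ubiquitin-editing enzyme A20, was 0.73 ± 0.14, and its call ended without R1 (0.0584) or C1 (0.0566). The count of 5 was 2 without R1 and 3 without R2, R3, C1 or C2, and 3 with median centring. Of 19 NF-kB targets on a separate list 5 rose and none fell, and 8 were higher at an unadjusted p under 0.05. Icam1, an adhesion molecule for leukocytes, read 7.72, 7.88 and 7.78 in controls and 9.21, 9.24 and 9.30 with RANKL, a rise of 1.46 ± 0.09 (adjusted p = 1.48e-06). The count of targets was 3 without R3, C1, with median centring or with an ordinary t.

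In the TNF family 8 of 41 ligands and receptors rose and none fell, but the number was 4 or 5 without any single array 4 with median centring or an ordinary t and 5 with the values as deposited. Those that held were Tnfrsf11a, Tnfrsf11b, the TNF receptor gene Tnfrsf1b (0.81 ± 0.11, adjusted p = 0.000774) and Relt (0.52 ± 0.07), the last named after its values were seen. Tnf itself rose by 1.10 ± 0.25, from 7.29, 7.06 and 6.95 to 8.50, 7.84 and 8.27. Its call ended without R1 (0.166), R3 (0.0934), C1 (0.0635), C2 (0.0907) or C3 (0.145) and with median centring (0.0857) or an ordinary t (0.115).

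Chemokine genes rose selectively. Of 30 measured, 7 rose and none fell, while the median change of the list was 0.04, and 8 were higher and 0 lower at an unadjusted p under 0.05. Ccl20, the ligand of CCR6 that attracts dendritic cells and B cells to the follicle dome, read 7.45, 8.03 and 7.57 in controls and 10.96, 10.97 and 11.19 with RANKL. That rise of 3.36 ± 0.20 (adjusted p = 1.08e-06; 10.2-fold) was the largest of the family. Ccl9, a CC chemokine of the follicle-associated epithelium, moved from 8.70, 8.26 and 8.23 to 10.73, 10.77 and 10.68, a rise of 2.33 ± 0.17. The transmembrane chemokine gene Cxcl16 rose by 1.57 ± 0.11, from 8.04, 8.28 and 8.30 to 9.75, 9.74 and 9.83. The RANKL arrays lay close together for each of these genes. The CXCR3 ligands rose too, with Cxcl11 at 1.46 ± 0.23 (adjusted p = 0.00333) and Cxcl10 at 1.17 ± 0.19 (adjusted p = 0.00304). Cxcl9, their relative, read 8.62, 9.08 and 7.77 in controls and 10.92, 10.20 and 10.00 with RANKL, a rise of 1.89 ± 0.39 (adjusted p = 0.0189). Its control arrays were widely spread, and its call ended without R1 (0.104), R2 (0.0556), C1 (0.0545) or C3 (0.0982) and with an ordinary t (0.0791). Ccl6, named after its values were seen, rose by 0.49 ± 0.09, a call that ended with median centring (0.0855).

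Nox1 and some subunits of the NADPH oxidases rose. NADPH oxidases move electrons across a membrane to oxygen and yield superoxide, and Nox1 is the catalytic subunit found in gut epithelium. Of 15 measured subunits and regulators 5 rose and none fell, and all 5 held without each array in turn. Nox1 (probe set 10606640) read 8.12, 8.0 and 7.34 in controls and 11.33, 10.99 and 11.01 with RANKL, a rise of 3.29 ± 0.24 (adjusted p = 2.65e-06; 9.80-fold). Cyba, the membrane partner p22phox, moved from 11.01, 10.90 and 10.83 to 12.07, 11.92 and 12.14, a rise of 1.13 ± 0.12. The 3 RANKL arrays lay above the 3 control arrays for each of the 5 called genes, as for every gene called higher. Of the cytosolic subunits, Ncf4 (p40phox) rose by 1.95 ± 0.19 from 7.28, 6.85 and 6.88, and Ncf1 (p47phox), named after its values were seen, by 0.84 ± 0.09. Rac2, the small GTPase of the phagocyte oxidase, rose by 2.10 ± 0.21, from 9.26, 8.53 and 8.69 to 10.78, 10.84 and 11.15. The phagocyte catalytic subunit gene Cybb was not called (0.20 ± 0.15, adjusted p = 0.716), nor was Nox4 (0.07 ± 0.08, adjusted p = 0.85). Duox2, the catalytic subunit of another epithelial oxidase, stood at 0.79 ± 0.29 (adjusted p = 0.226), with RANKL arrays at 11.36, 11.31 and 12 and controls at 10.89, 10.87 and 10.52. Rac2, Ncf4, Ncf1 and Cybb are also genes of white blood cells. On 29 markers of myeloid and dendritic cells the summed linear intensity was 5784 to 5885 with RANKL and 5670 to 6631 in controls, and 2 of the 29 rose (Aif1 and the integrin gene Itgam, 0.99 ± 0.16). Aif1 was called only with all 6 arrays or without C1. At an unadjusted p under 0.05 by limma 6 of the 29 were higher and 1 was lower. The groups lay apart upward for 6 and downward for 3, and for 8.09% and 9.44% of all genes. The macrophage markers Csf1r (-0.12 ± 0.09, adjusted p = 0.727) and Adgre1 (-0.13 ± 0.07, adjusted p = 0.576) were not called. The part of white blood cells in the rises of Rac2, Ncf4 and Ncf1 was not tested.

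Single genes of lysosomal proteolysis, lipid binding, sugar transport and steroid metabolism were among the 16 largest rises. Ctsh, the lysosomal cathepsin H, read 7.81, 7.71 and 7.75 in controls and 10.12, 10.13 and 10.56 with RANKL, a rise of 2.52 ± 0.18. Only 1 other of 18 cathepsin and cystatin genes was called, the cystatin gene Cst6, which rose by 0.58 ± 0.11. Serpina10, a serpin that inhibits coagulation factors, rose by 2.01 ± 0.21 from 8.03, 7.92 and 7.88 to 9.87, 9.83 and 10.17. Fabp5, an epidermal-type fatty acid binding protein, was flat in controls (7.25, 7.29 and 7.29) and rose by 2.50 ± 0.20 to 9.68, 9.46 and 10.18. Its second probe set changed by 2.29. The enterocyte gene Fabp1 was not called at 1.33 ± 0.59 (adjusted p = 0.386), its controls running from 8.72 to 10.28. The sugar transporter gene Slc2a6 moved from 8.04, 7.71 and 7.76 to 10.43, 10.46 and 10.93, a rise of 2.77 ± 0.17 (adjusted p = 1.08e-06). Hsd17b6, which encodes a retinol and steroid dehydrogenase, rose by 2.30 ± 0.43 from 7.15, 8.64 and 8.94 to 10.36, 10.64 and 10.64. C1 was low for Hsd17b6, and the call ended with an ordinary t (0.0519). Of 15 serpins 3 rose and 0 fell, against 1.52% and 1.05% of all genes. The counts were 2 and 1 of 21 for lipid binding and uptake. They were 2 and 1 of 27 for sugar and monocarboxylate transporters, and 1 and 1 of 15 for steroid dehydrogenases. Without each array in turn 2 of the serpin rises held, 1 and 0 of the lipid calls, 1 and 0 of the transporter calls and 1 and 1 of the dehydrogenase calls.

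Antimicrobial and acute-phase genes were few but large in their change. Of 25 measured 4 rose and 1 fell, against 1.52% and 1.05% of all genes. At an unadjusted p under 0.05 by limma 6 were higher and 4 lower. Lcn2, the siderophore-binding protein that withholds iron from bacteria, read 7.0, 6.81 and 6.82 in controls and 9.28, 9.28 and 10.39 with RANKL, a rise of 2.77 ± 0.38 (adjusted p = 0.000945). R3 was the highest array for Lcn2, and the lowest of the others still lay far above the controls. The neighbours Wfdc17 and Wfdc18, genes of secreted WAP-domain proteins, rose by 2.41 ± 0.29 and 1.38 ± 0.18. They are close paralogs, so the share of each in the signal is uncertain. The member that fell, Reg4 (-1.19 ± 0.29, adjusted p = 0.0472), lost its call without R2 (0.159), R3 (0.151), C1 (0.171), C2 (0.101) or C3 (0.0999). It also ended with median centring (0.127), an offset of 16 (0.0542), an ordinary t (0.144), a trended prior (0.0619) and the values as deposited (0.071).

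Iron genes moved in both directions. Hepcidin, the product of Hamp, binds the exporter ferroportin (Slc40a1) and removes it from the cell surface. Hamp (probe set 10562169) read 5.43, 5.70 and 5.90 in controls and 8.0, 7.68 and 7.87 with RANKL, a rise of 2.18 ± 0.20 (adjusted p = 2.91e-05). C1 lay within the background, which leaves the size of the rise uncertain. Its paralog Hamp2 was not called (-0.04 ± 0.14, adjusted p = 0.97). Bmp6, which encodes a known inducer of hepcidin, rose by 1.23 ± 0.09, from 7.46, 7.37 and 7.64 to 8.77, 8.81 and 8.58. Tfrc, the transferrin receptor gene, rose by 1.13 ± 0.20, from 9.29, 9.63 and 9.35 to 10.65, 10.79 and 10.21. Slc40a1 read 8.67, 8.68 and 8.60 in controls and 6.43, 6.55 and 7.52 with RANKL, and fell by 1.82 ± 0.37 (adjusted p = 0.0173). R3 was the highest of its RANKL arrays but still more than 1 below the controls. The call ended without R1 (0.0938), R2 (0.0886), C1 (0.0618), C2 (0.0532) or C3 (0.0631) and with an ordinary t (0.0746). In all 3 of 21 iron genes rose and 2 fell, against 1.52% and 1.05% of all genes, and the falls numbered 0 without R1 or any of the 3 controls. At an unadjusted p under 0.05 by limma 5 were higher and 3 lower.

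Among surface and adhesion genes 4 of 33 rose and 1 fell, against 1.52% and 1.05% of all genes, and the 4 held without each array. At an unadjusted p under 0.05 by limma 11 were higher and 5 lower. Weights per array called 8 higher, and the fall, of Sdc1, was not called without R2 (0.192), R3 (0.0969), C1 (0.136), C2 (0.0835) or C3 (0.0985), with median centring (0.167), on the deposited scale (0.0881) or with an ordinary t (0.0975). Beside Icam1 the genes that rose were the hyaluronan receptor gene Cd44 (1.30 ± 0.17), the laminin chain gene Lamb3 (1.05 ± 0.19) and the fibronectin receptor subunit gene Itga5 (0.70 ± 0.12). Cd44 read 10.20, 10.13 and 9.38 with RANKL against 8.66, 8.57 and 8.57 in controls. R3 was the low array again for Cd44. Of 17 genes of the Ly6 family of GPI-anchored proteins 2 rose and none fell, against 1.52% and 1.05% of all genes. Ly6d rose by 1.79 ± 0.32 (7.69, 6.97 and 7.15 to 8.85, 8.89 and 9.43) and Ly6e by 1.62 ± 0.22. Ly6d and Ly6e, like every called gene, had no overlap between groups.

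A pair of interferon receptor genes moved in opposite directions. Ifnar2, a chain of the type I interferon receptor, read 7.57, 7.61 and 7.42 in controls and 8.83, 8.75 and 8.98 with RANKL, a rise of 1.32 ± 0.13 (adjusted p = 4.37e-05). Ifnlr1, the specific chain of the lambda interferon receptor, moved from 8.65, 8.64 and 8.90 to 7.39, 7.16 and 7.34, and fell by 1.44 ± 0.14 (adjusted p = 3.02e-05). Both groups of arrays were tight, and these were the only genes called of 17 receptors and transducers. The other chains were not called, with Ifnar1 at 0.21 ± 0.08 (adjusted p = 0.25) and Il10rb at 0.05 ± 0.09 (adjusted p = 0.921). Il22ra1, the neighbour of Ifnlr1 on chromosome 4 and the receptor chain for interleukin 22, was named after its values were seen. Il22ra1 fell by 0.74 ± 0.16 (adjusted p = 0.025). Its call ended without R1 (0.085), R2 (0.129), C1 (0.055), C2 (0.0651) or C3 (0.119) and with median centring (0.0813) or an ordinary t (0.083). Of 29 interferon-stimulated genes 3 rose, the CXCR3 ligands given above, and 1 fell, against 1.52% and 1.05% of all genes. At an unadjusted p under 0.05 by limma 7 were higher and 1 was lower, and 8 were called higher when the 2 groups were fitted alone. The gene that fell, Ifi27, changed by -0.43 ± 0.10 (adjusted p = 0.0254), a call that ended without R1 (0.122), R2 (0.122) or C3 (0.0901), with the 2 groups alone (0.128), on the deposited scale (0.0509) and with an ordinary t (0.0565).

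The largest fall in the fatty acid and sterol lists was that of Scd1, the desaturase that makes oleate. Scd1 (probe set 10467979) read 8.73, 7.77 and 8.71 in controls and 6.59, 6.15 and 6.88 with RANKL, and fell by 1.86 ± 0.32 (adjusted p = 0.00601; 3.63-fold lower). C2 was the lowest control and still above every RANKL array. It was the only gene called of 19 in fatty acid synthesis, with Scd2 at 0.34 ± 0.40 (adjusted p = 0.857) and the synthase gene Fasn at 0.17 ± 0.17 (adjusted p = 0.817). Of 27 genes of fatty acid oxidation and PPAR alpha targets 2 fell and none rose, against 1.05% and 1.52% of all genes, with a median change of -0.18. No fall of that list held without each array, and at an unadjusted p under 0.05 by limma 1 was higher and 11 lower. Cpt1a, which carries fatty acids into mitochondria, fell by 0.64 ± 0.12 (adjusted p = 0.00975), a call that ended without C1 (0.0519). Pnliprp2, which encodes a lipase, fell by 1.40 ± 0.28, from 10.07, 9.27 and 9.67 to 8.62, 8.61 and 7.58, a call that ended without C1 (0.0768) or C3 (0.0622) when the 2 groups were fitted alone (0.0646) and with an ordinary t (0.0682). None of 20 genes of sterol synthesis was called, and by limma 3 were lower and 0 higher at an unadjusted p under 0.05.

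**Figure D3:**
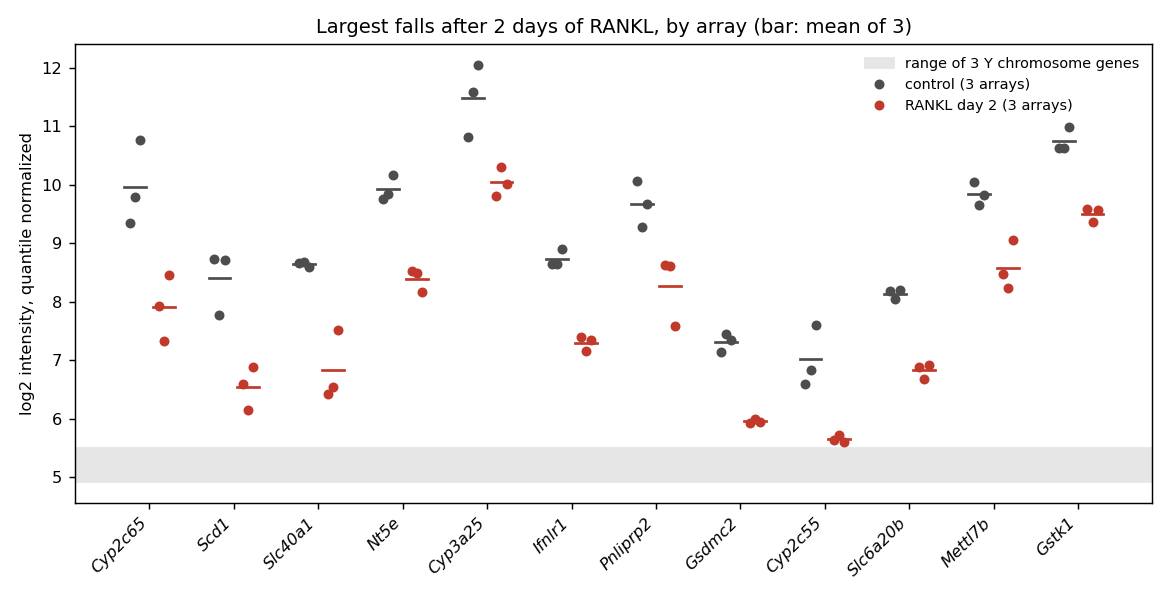
Levels (log2 intensity) of the 12 genes with the largest falls on each control array (grey) and each RANKL day 2 array (red), with bars at the means of 3 arrays and a band at the range of 3 Y chromosome genes. Controls spread widely for Cyp2c65 (9.34 to 10.76) and little for Slc40a1 (8.60 to 8.68), and Cyp2c55 falls almost to the background band.

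Xenobiotic metabolism genes were mostly lower where they were called. Of 33 cytochrome P450 genes 6 fell and none rose, although only 3 fell without R2, 2 without C3 and 2 with an ordinary t. At an unadjusted p under 0.05 there were 10 lower and 0 higher. Cyp2s1, named after its values were seen, read 10.76, 10.43 and 10.48 in controls and 9.77, 9.98 and 9.71 with RANKL, and fell by 0.74 ± 0.12, the only fall of the list that held without each array. Cyp2c65 read 9.34, 9.79 and 10.76 in controls and 7.93, 7.33 and 8.45 with RANKL, and fell by 2.06 ± 0.40 (adjusted p = 0.0127). Its call ended without R2 (0.0724) or C3 (0.0653) and with an ordinary t (0.0623). The adjacent paralog Cyp2c55 fell by 1.36 ± 0.26, to 5.64, 5.73 and 5.60 from 6.60, 6.84 and 7.61, a call that ended without C3 (0.0513) and with an ordinary t (0.057). Cyp3a25 fell by 1.44 ± 0.26, from 10.82, 11.58 and 12.05 to 9.81, 10.31 and 10.01, and lost its call without R1 (0.05). Probe sets of Cyp2c and Cyp3a paralogs may share signal.

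Of 48 conjugating enzymes and esterases 8 fell and 2 rose. The falls numbered 3 without R2 or C3, 4 without R3 or C2, 5 without C1 5 with median centring and 4 with an ordinary t. Gstk1, a glutathione transferase of mitochondria and peroxisomes, read 10.62, 10.63 and 10.98 in controls and 9.59, 9.36 and 9.56 with RANKL, and fell by 1.24 ± 0.17 (adjusted p = 0.000765). Gclc, the catalytic subunit of the first step of glutathione synthesis, rose by 1.10 ± 0.20, a call that ended without C3 (0.0526). The carboxylesterase 2 genes lie side by side on chromosome 8 and split. Ces2b fell by 0.78 ± 0.13 (8.11, 7.95 and 8.24 to 7.42, 7.20 and 7.34), and Ces2g rose by 1.26 ± 0.22 (7.20, 6.91 and 7.24 to 8.08, 8.03 and 9.02). Their neighbours, named after their values were seen, went the same ways. Ces2e fell by 0.62 ± 0.12, a call that ended without R1 (0.0525), R2 (0.0693), C2 (0.0501) or C3 (0.0704) and with the 2 groups alone (0.0646). Ces2f rose by 1.55 ± 0.29, with R3 at 9.20 far above the others at 7.93 and 7.80, and was not called with the 2 groups alone (0.0606) or an ordinary t (0.0519). The paralogs are alike in sequence, so the split between them is uncertain.

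Single genes of transport, tight junctions and pore formation fell. Slc6a20b, an imino acid transporter gene, read 8.18, 8.04 and 8.20 in controls and 6.89, 6.68 and 6.92 with RANKL, and fell by 1.31 ± 0.11 (adjusted p = 1.29e-05). Of 27 amino acid and peptide transporters it was the only one called lower, and 2 were called higher. Those numbered 0 without R1, R2 or any 1 of the controls. Cldn8, a claudin of tight junctions, fell by 1.14 ± 0.18, from 7.73, 7.64 and 7.84 to 6.60, 6.55 and 6.65. Each of these falls had tight groups far apart. Of 23 tight junction genes 3 fell and none rose, 1 with median centring, and at an unadjusted p under 0.05 there were 9 lower and 0 higher. Cldn23 fell by 0.42 ± 0.07, a call that ended with median centring (0.0736). Gsdmc2, a gasdermin, fell by 1.36 ± 0.11 (adjusted p = 6.21e-06), from 7.14, 7.45 and 7.35 to 5.92, 5.99 and 5.95. In its list of 25 genes 3 fell, but only 1 without R1, R2, R3 or C3. Without the dimmest 40% of genes there was also 1, and Nlrp6 kept its call there. The call of Nlrp6 ended without any of the 6 arrays (0.0695 to 0.139) and with an ordinary t (0.0765). Gsdmc4 lay at background, at 5.09, 5.10 and 5.19 in controls and 4.90, 4.87 and 4.87 with RANKL. Its call ended without R1 (0.0639), R2 (0.0982), R3 (0.0658) or C3 (0.109), with an offset of 16 (0.0531) and with the 2 groups alone (0.133). Gsdmc2 has near-identical neighbours.

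Single enzymes of purine handling changed in both directions. Entpd2, an ectonucleotidase that cleaves ATP, rose by 0.50 ± 0.09 (adjusted p = 0.00751). Nt5e, which makes adenosine from AMP, read 9.75, 9.84 and 10.17 in controls and 8.52, 8.50 and 8.17 with RANKL, and fell by 1.52 ± 0.32 (adjusted p = 0.0199). The call of Nt5e ended without R1 (0.0586), R2 (0.064), R3 (0.0713), C2 (0.0511) or C3 (0.101) and with an ordinary t (0.0816). Adk, the adenosine kinase gene, fell by 0.55 ± 0.10, a call that ended without C3 (0.0538), with median centring (0.155) and on the deposited scale (0.0645).

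Other genes, named after their values were seen, extended these groups. Of secreted and matrix proteins, Itih5 rose by 2.17 ± 0.19 (6.73, 6.63 and 6.72 to 8.95, 8.91 and 8.72), and the pancreatic-type ribonuclease gene Rnase1 by 1.95 ± 0.15. The adhesion G protein-coupled receptor gene Adgrd1 rose by 2.09 ± 0.14, from 9.41, 9.33 and 9.67 to 11.52, 11.60 and 11.57. Tmem176a and Tmem176b, adjacent genes on chromosome 6, rose by 1.54 ± 0.20 and 1.45 ± 0.17. None of these genes had overlapping groups, nor had any other called gene. The 3 adjacent Clca3 genes of chromosome 3 rose, Clca3a1 by 1.79 ± 0.13, Clca3a2 by 2.17 ± 0.12 and Clca3b by 1.10 ± 0.08, and as close paralogs they may share signal. The interleukin 6 family receptor chain gene Il6st rose by 1.00 ± 0.15, and Blnk, an adaptor of B cell receptor signalling, by 1.04 ± 0.13. Of genes for hormone receptors, which were not counted as a list, those that fell include the thyroid hormone receptor gene Thra at -0.69 ± 0.09, the vitamin D receptor gene Vdr at -0.66 ± 0.09 and the mineralocorticoid receptor gene Nr3c2 at -0.69 ± 0.12, the last not called with median centring (0.0736). The BMP ligand genes Bmp4 (-0.82 ± 0.12) and Bmp3 (-0.80 ± 0.15) also fell, opposite to Bmp6, and Gas6, a ligand of the TAM receptors, fell by 1.09 ± 0.18. In map order over 19856 measured genes 27 runs of neighbours were called in a single direction, 18 higher and 9 lower, and these held 55 genes. How many runs would form with 1.52% and 1.05% of all genes called at unrelated places was not tested. Several runs are of paralogs that may share signal, such as Wfdc17 with Wfdc18 and the Clca3 genes.

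Markers of other epithelial cells showed what else moved. Of 20 goblet cell markers 4 fell and none rose, against 1.05% of all genes called lower. The groups lay apart downward for 9 of the 20, and for 9.44% of all genes. Their summed linear intensity was 72782 to 79734 with RANKL and 85440 to 88733 in controls, without overlap. Scin, which encodes the actin-severing scinderin, read 11.11, 11.18 and 11.11 in controls and 10.22, 10.18 and 10.29 with RANKL, and fell by 0.90 ± 0.07 (adjusted p = 5.08e-06). Capn9, a digestive tract calpain, fell by 0.55 ± 0.10. The mucin gene Muc2 was not called at -0.28 ± 0.08 (adjusted p = 0.0957), nor was Tff3 at -0.18 ± 0.10 (adjusted p = 0.541). Of the other called markers, Bcas1 (-0.91 ± 0.17) lost its call without R2 (0.064) or C3 (0.0636). Sytl2 lost its call without R1 (0.134), R2 (0.114), R3 (0.104), C2 (0.12) or C3 (0.184). It also ended with median centring (0.366), the values as deposited (0.203), the 2 groups alone (0.0795) and an ordinary t (0.0927). The goblet count was 2 without R2 or C3, as with an ordinary t. At an unadjusted p under 0.05 there were 8 lower and 0 higher.

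Tuft cell markers rose for 6 of 28 and fell for none, with a median change of 0.0 against -0.02 over all genes. Only 3 rose without R1, R2 or C3 or with an ordinary t. At an unadjusted p under 0.05 by limma 11 were higher and 3 lower. Their summed intensity was 7275 to 8250 with RANKL and 5892 to 6398 in controls, and Gnat3 lay at background. Fyb, an adaptor shared with blood cells, rose by 1.26 ± 0.19, Kctd12 by 0.90 ± 0.10 and Plcg2, named after its values were seen, by 0.48 ± 0.07, and these held without each array. Rgs13 read 5.25, 5.46 and 5.19 in controls, all within background, so the size of its change, 0.72 ± 0.16, is uncertain. The call of Rgs13 ended without R1 (0.143), R2 (0.133), C1 (0.0992) or C3 (0.132) and with median centring (0.0703), an offset of 16 (0.0549) or an ordinary t (0.0902). Trpm5 rose by 0.80, a call that ended without any of the 6 arrays (0.0621 to 0.119) and with an ordinary t (0.105). Pou2f3, named after its values were seen, rose by 0.55 ± 0.12. Its call ended without R1 (0.125), R2 (0.131), C2 (0.099) or C3 (0.143) and with an ordinary t (0.0828). Stem cell markers rose for 5 of 24 and fell for none, but the count was 2 without R1, 3 without R2 or C2 8 without R3 and 3 with the 2 groups alone or an ordinary t. R3 had a summed intensity of 10425 on these markers, just under the controls' 10570 to 12110, against 16201 and 16244 on the other RANKL arrays. Aqp4, a water channel gene on that list, rose by 1.39 ± 0.12, from 7.37, 7.40 and 7.45 to 8.83, 8.69 and 8.88. Olfm4 read 12.42, 12.40 and 11.25 with RANKL against 11.67, 11.62 and 11.40 in controls and was not called (adjusted p = 0.456), and Lgr5 was not called at -0.40 ± 0.23 (adjusted p = 0.587).

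None of the 19 enterocyte markers lay at background, and their summed intensity ran from 136203 to 146586 with RANKL and from 114872 to 139572 in controls. Of the 19, 1 was called higher, the apolipoprotein gene Apoa4 (0.71 ± 0.15), a call that ended without R1 (0.059), R2 (0.0675), R3 (0.0584), C1 (0.0707) or C2 (0.0689) and with an ordinary t (0.0645). Paneth markers summed to 20201 to 31078 with RANKL and 31542 to 38367 in controls, with 1 of 8 called lower (Lyz1, -0.44 ± 0.11). The call of Lyz1 ended without R1 (0.087), R3 (0.121), C1 (0.123), C2 (0.0914) or C3 (0.152). It also ended with weights per array (0.0511), median centring (0.201), an ordinary t (0.096), the replicate block (0.0641), the 2 groups alone (0.13) and the values as deposited (0.119). White blood cells were present in both groups. T cell markers summed to 10200 to 14328 with RANKL and 11609 to 14406 in controls, with Klrb1c at background, and none of 28 was called or passed an unadjusted p of 0.05 by limma. B cell and plasma cell markers summed to 3272 to 4116 with RANKL and 4239 to 5396 in controls, with 1 of 18 called lower, Sdc1, whose lost calls are given with the adhesion genes. Stromal and endothelial markers summed to 3899 to 4300 and 4099 to 5808. The part of these shifts in any gene's change was not tested.

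**Figure D4:**
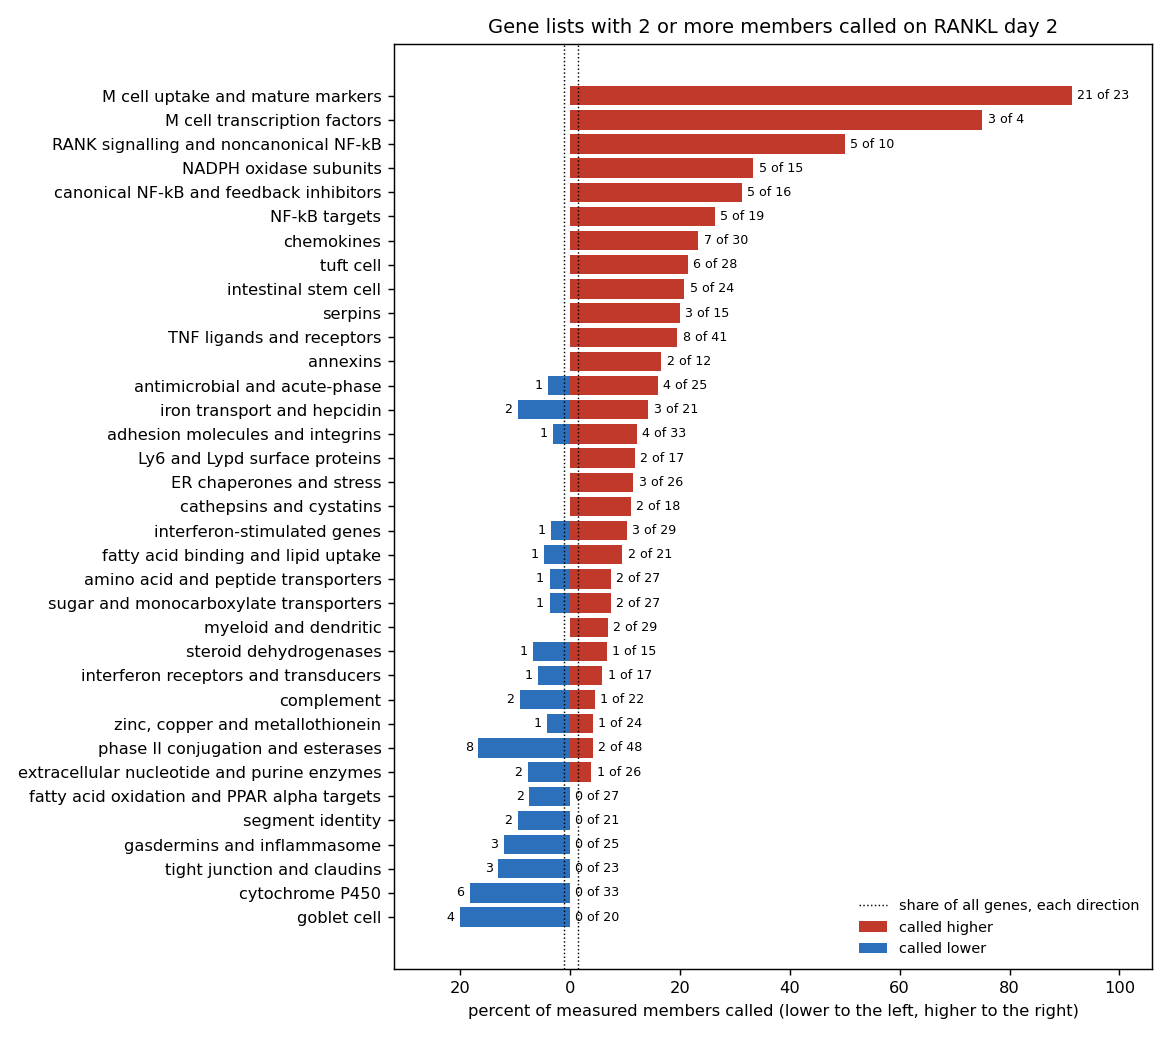
Percent of the measured members of each gene list called lower (blue, to the left) or higher (red, to the right) on RANKL day 2, for lists with 2 or more called members, with dotted lines at the shares of all genes (1.52% higher, 1.05% lower). The M cell lists stand furthest right with 21 of 23 and 3 of 4 members, and the goblet cell and cytochrome P450 lists furthest left with 4 of 20 and 6 of 33.

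Of the 55 lists 12 had no called member. Osteoclast target genes of RANKL were among them, with 0 of 27 called and 0 past an unadjusted p under 0.05 by limma. Ctsk (0.01 ± 0.11, adjusted p = 0.987), Nfatc1 (-0.07 ± 0.08, adjusted p = 0.86) and Acp5 (-0.22 ± 0.14, adjusted p = 0.645), which RANKL drives in osteoclasts, were all measured above background. No gene was called of 25 immediate early genes (0 higher and 3 lower at an unadjusted p under 0.05), 17 clock genes (0 and 1), 47 genes of oxidative phosphorylation (0 and 3) or 21 brush border digestive enzymes (2 and 2). The same held for 30 genes of retinoid metabolism (2 and 6), 33 of prostaglandin and phospholipase genes (3 and 1), 26 enteroendocrine markers (1 and 3) and 24 stromal markers (0 and 3). Leaving out an array or changing a setting called at most 3 members of the retinoid list and 1 of the sterol, immediate early, clock or prostaglandin lists. Sis, the sucrase-isomaltase gene, stood at -0.05 ± 0.13 (adjusted p = 0.945), and the hormone gene Chga at 0.03 ± 0.12 (adjusted p = 0.967). The class II genes Cd74 (-0.04 ± 0.10, adjusted p = 0.939) and H2-Ab1 (-0.25 ± 0.19, adjusted p = 0.722) were not called either, which left H2-M2 as the only called gene of 22 in antigen presentation.

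The comparison of day 2 with day 1 asked which genes moved between these days. By limma 40 genes were called (0.201% of all genes), 29 higher on day 2 and 11 lower. With the replicate number as a block 69 were called. The count was 7 without R1, 9 without E3, 11 without E2, 14 without R3, 17 without R2 and 25 without E1. Only 5 were called when the 2 groups were fitted alone and 17 with the values as deposited. The call held without each array for 6 genes, namely Gp2, Hamp, Plekhs1, C4bp, Clca2 and Tagln2, of which Plekhs1, C4bp and Clca2 were named after their values were seen. This comparison uses the same day 2 arrays as the one against control.

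Gp2 read 5.80, 6.02 and 6.25 on day 1, as in controls, so nearly all of its rise lay between day 1 and day 2 (3.77 ± 0.34, adjusted p = 0.000335). Spib, in contrast, had read 11.58, 10.98 and 11.09 on day 1 and differed by 0.10 between the days (adjusted p = 0.978). Hamp read 5.82, 5.80 and 5.97 on day 1 and rose by 1.99 ± 0.20 from there (adjusted p = 0.000659). C4bp, which encodes a complement regulator, read 7.60, 7.09 and 7.57 on day 1 and rose by 1.47 ± 0.14 to 8.83, 8.85 and 8.99. Plekhs1 rose by 1.70 ± 0.13 (adjusted p = 8.37e-05), from 6.43, 6.0 and 6.22 to 7.98, 7.70 and 8.06, and Clca2 by 0.94 ± 0.09. In a fit of the 2 groups alone C4bp (0.0577) and Clca2 (0.11) were not called. Wfdc17 rose by 1.99 ± 0.29 and Ly6d by 1.85 ± 0.32 between the days. The call of Wfdc17 ended without E3 (0.0587), R1 (0.0532) or R3 (0.0723), and that of Ly6d without any of the 6 arrays (0.0957 to 0.176).

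A smaller set was lower on day 2 than on day 1. Tagln2, which encodes an actin-binding transgelin, read 11.04, 11.01 and 11.01 on day 1 and 10.40, 10.43 and 10.27 on day 2, and fell by 0.65 ± 0.08 (adjusted p = 0.00304). It was not called with median centring (0.0532) or the 2 groups alone (0.117). Nfkb2 read 10.46, 10.32 and 10.42 on day 1 and fell by 0.51 ± 0.08 to its day 2 values, still above control. Its call ended without any of the 6 arrays (0.0618 to 0.126), with median centring (0.511) and on the deposited scale (0.24). Rcan1, a calcineurin inhibitor gene, and Mal, a raft protein gene, had read 9.80, 9.96 and 9.81 and 9.14, 9.24 and 9.64 on day 1. On day 2 neither was called against control, at 0.20 ± 0.12 (adjusted p = 0.604) and 0.34 ± 0.19 (adjusted p = 0.555).

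**Figure D5:**
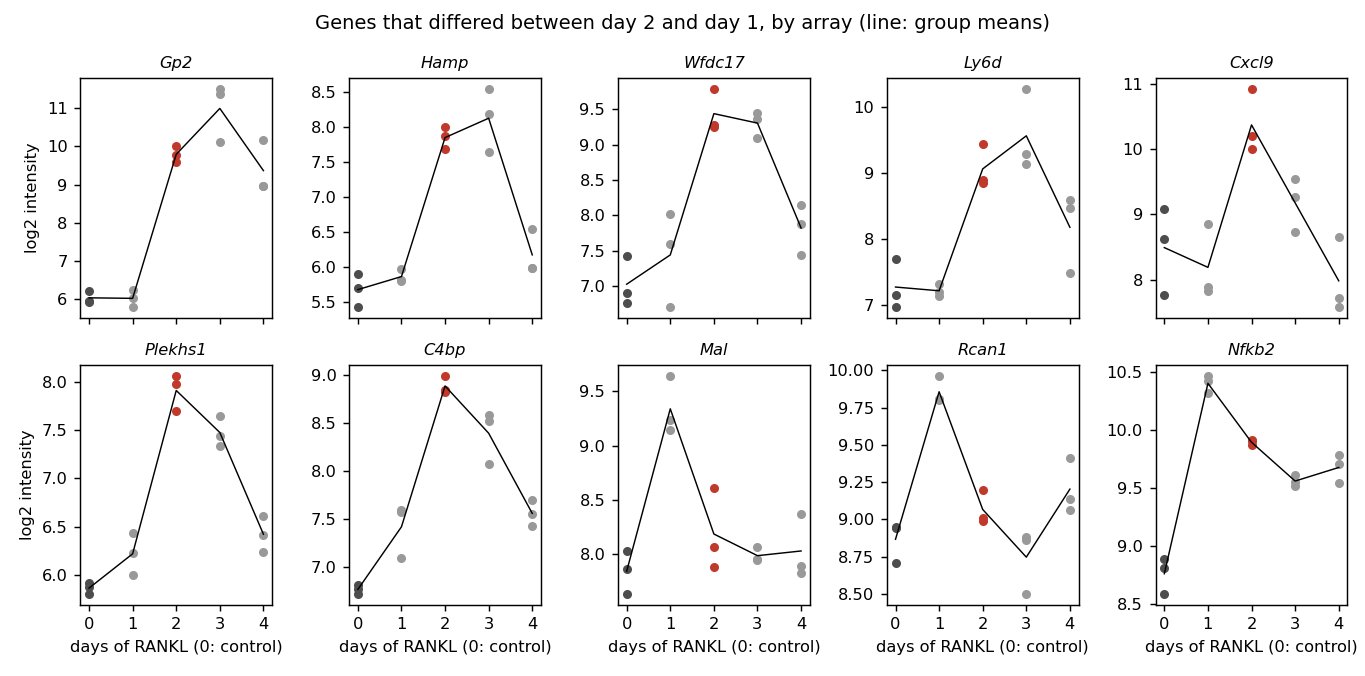
Levels (log2 intensity) of 10 genes called between day 2 and day 1, on each of the 15 arrays by days of RANKL (0 is control), with day 2 in red and a line through the group means. Gp2 and Hamp leave the control level only on day 2, while Mal, Rcan1 and Nfkb2 are highest on day 1.

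Between day 2 and day 3 no gene was called by limma (0% of all genes), and weights per array called 13. An unadjusted p under 0.05 by limma was reached by 961 of 19938 genes, no more than that threshold passes where no gene differs. Gp2 stood 1.20 ± 0.34 higher on day 3 (adjusted p = 0.787), at 10.12, 11.49 and 11.36, and Cxcl9 differed by -1.20 ± 0.39 (adjusted p = 0.879). Cxcl10 differed by -1.09 ± 0.19 (adjusted p = 0.149) and Rgs13 by 1.00 ± 0.16 (adjusted p = 0.149). The numbers of arrays limit the precision of all these differences.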

How the data were processed

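Total RNA of epithelial cells detached with 30 mM EDTA for 10 minutes was read on 15 arrays in 5 groups of 3. The deposited value table holds linear intensity from 25.95 to 24106.7. How the authors summarised and normalized it is not given in the sources used here. The build named in the submitters' processing notes is mm9. Of 28853 probe sets 21789 had 1 gene symbol in the platform annotation, 1621 several and 5443 none. The 19938 genes were each represented by their brightest probe set on average (999 had more than 1).

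Intensities were log2-transformed, without an offset, and quantile normalized. All 15 arrays were fitted with 5 group means in limma 3.58.1 (R 4.3.3; 10 residual and 3.49 prior degrees of freedom), p-values were adjusted over all genes by Benjamini-Hochberg, and the code was tested on simulated data. Named genes are the 16 largest rises and 12 largest falls without overlap between groups and without unnamed clones, up to 4 called members per direction of each list, the 5 largest changes per direction between days, and 13 genes always given, with exceptions said to be chosen after their values were seen. The members and lists were chosen with earlier results of these data known. Alternatives were the values as deposited, median centring, removal of the dimmest 40% of genes, an offset of 16, the mean of all probe sets, a trended robust prior, weights per array, the 2 groups alone, an ordinary t statistic without the prior, a replicate block, and leaving out arrays.

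Deviations from the group means correlated at 0.144, 0.143 and 0.382 for same-numbered arrays of RANKL day 2 and control. For those of day 2 and day 1 the correlations were 0.379, 0.151 and 0.388. Differently numbered arrays gave -0.295 to 0.113 for day 2 and control and -0.361 to 0.0957 for day 2 and day 1. The replicate numbers come from the titles. For day 3 and day 2 the same-numbered correlations were 0.0163, 0.388 and 0.137, and the others ran from -0.323 to 0.211. Promoter windows are RefSeq's, in GRCm38.p6, matched by gene, and no coordinates were converted.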

Additional observations from a re-analysis of the deposited data

Results flagged for a closer look

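These results differed between RANKL day 2 and RANKL day 1 in the limma test of that difference (log2, adjusted p under 0.05 over all genes). Both days share the control arrays. Higher on day 2 were Gp2 by 3.77, Cxcl9 by 2.19, Wfdc17 by 1.99, Hamp by 1.99, Ly6d by 1.85, Fabp5 by 1.35, Wfdc18 by 1.34, Tnfaip2 by 1.24, Aqp4 by 0.74 and Cst6 by 0.6. Lower on day 2 were Mal (-1.16), Rcan1 (-0.79), Cdk6 (-0.77), Tagln2 (-0.65), Reep1 (-0.62) and Nfkb2 (-0.51). The calls of Gp2, Hamp and Tagln2 held without each of the 6 arrays. Those of Ly6d (0.0957 to 0.176), Nfkb2 (0.0618 to 0.126), Aqp4 (0.0553 to 0.14) and Cst6 (0.0657 to 0.176) ended without any 1 of them. Those of Cxcl9 (0.112 to 0.187), Tnfaip2 (0.108 to 0.189) and Reep1 (0.0723 to 0.19) ended without any array but E1, and that of Cdk6 (0.0532 to 0.0965) without any but R2. The calls of Mal (0.0664 to 0.132) and Rcan1 (0.0656 to 0.106) ended without E2, E3, R1 or R2, and that of Fabp5 (0.0592 to 0.0761) without E2, E3, R1 or R3. That of Wfdc17 ended without E3 (0.0587), R1 (0.0532) or R3 (0.0723), and that of Wfdc18 without E2 (0.0503) or E3 (0.0587).

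Probe sets without 1 gene symbol stayed out of the comparisons. Of 7064 such probe sets 36 were called on day 2 against control (0.51%), 25 higher and 11 lower, with the largest rise at 3.51 and the largest fall at -0.9.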

How the results depend on the processing

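No named call changed sign in the settings run. Weights per array turned the balance of calls, from 59.1% to 47.2% higher for day 2 against control (439 higher, 491 lower) and from 72.5% to 34.7% higher for day 2 against day 1 (247 higher, 464 lower). For RANKL day 2 against control, 513 genes became 930 with weights per array, whose estimation did not fully converge, 320 with an ordinary t, 311 with median centring, 721 without E2 and 283 to 437 without 1 of the 6 arrays. For day 2 against day 1, 40 became 19 with median centring, 711 with weights per array, 17 with the values as deposited, 5 with the 2 groups alone, 7 with an ordinary t, 69 with the replicate block and 7 to 25 without 1 array (11 without E2). For day 3 against day 2 the count of 0 became 13 with weights per array. With the replicate block day 2 against control gave 635 genes. The cause of these shifts was not tested. The number of arrays, 3 per group, and signal near background limit what could be called.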
